A study of Homo sapiens with 2 samples.

Results

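The S100 proteins described here are 10 of the 18377 genes measured in EBC1 cells and in their MET inhibitor-resistant subline EBC1-R. They are S100A2, S100A4, S100A6, S100A8, S100A9, S100A10, S100A11, S100A14, S100A16 and S100P, taken by name. Each is represented by 1 probe set that names no other gene, so no member has a second reading on either array. EBC1 is an established line from a human squamous carcinoma of the lung in which MET, the gene of the hepatocyte growth factor receptor, is amplified. EBC1-R came from EBC1 cells that outlived stepwise increases of PHA-665752, an inhibitor of the MET kinase, and it was kept in medium with 3 µM inhibitor. The labels give parental EBC1 as wild type and state no inhibitor for it. There was 1 array for EBC1 and 1 for EBC1-R, so selection for resistance and the presence of the drug cannot be told apart, and no value has a replicate error. Levels are the deposited values, taken as log2 intensities from their range. Each difference is EBC1-R minus EBC1 on the log2 scale, given as a size with no test.

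S100 proteins are small calcium sensors of vertebrates that carry a pair of EF-hand motifs and mostly work as dimers. On binding calcium they open a surface that grips partner proteins, among them annexins, cytoskeletal proteins and p53. Some also leave the cell and act on receptors such as RAGE and TLR4, and most of their genes lie side by side on chromosome 1 within the epidermal differentiation complex, a cluster of genes for the barrier proteins of stratified epithelia. In squamous epithelium and its tumours several members, S100A2 and the S100A8 and S100A9 pair in particular, are widely used as markers of differentiation or inflammation.

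The S100 genes mostly differed little between the arrays, and S100A16 was the exception among the bright ones. S100A16 was 2.03-fold lower in EBC1-R and was the 1 member at least 2-fold different. S100A8 was 1.66-fold higher, from a low level. The other members differed by at most 1.27-fold, S100A9 upwards and the remaining 7 downwards. Of all genes, 0.887% were at least 2-fold lower and 1.26% at least 2-fold higher, beside 1 and 0 of the 10 members. At 3-fold the shares of all genes were 0.196% and 0.354%, with no member counted. By direction alone, 8 of 10 members were lower in EBC1-R, against 55.5% of all genes, and their median difference was -0.18, against -0.03 over all genes. No p-value can be given with 1 array a group.

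**Figure D1:**
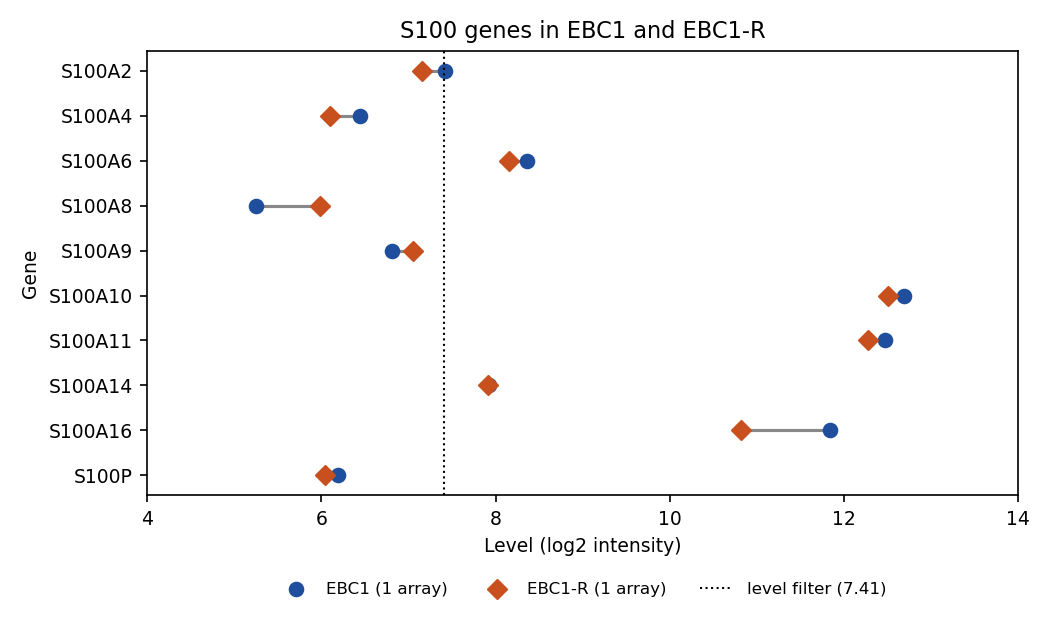
Levels of the 10 S100 genes (log2 intensity) in EBC1 (circles) and EBC1-R (diamonds), 1 array each, with no error bars because there are no replicates. S100A16 shows the widest gap of the 10 genes, from 11.84 to 10.82, S100A8 the next, from 5.25 to 5.98, and for S100A14 (7.93 and 7.91) the symbols lie on each other.

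S100A16 is a broadly expressed S100 protein of epithelial cells. It read 11.84 in EBC1 against 10.82 in EBC1-R, which is a difference of -1.02. That placed it at rank 156 of 18377 genes counted from the lowest difference. Among the 527 other genes whose mean level lay within 0.5 log2 units of its own, 1.90% were lower by at least as much. S100A16 was at the 99.0th percentile of gene levels in EBC1 and at the 96.0th in EBC1-R, so it was far from the dim end of both arrays. Percentiles of this kind place a probe set's brightness on its array and do not rank transcript amounts between genes. In bulk RNA, fewer cells with the transcript and less transcript per cell cannot be told apart. The value lies at the edge of the 2-fold threshold. Centring the arrays on their medians brought it to -0.999, just short of 2-fold, and the count of members at least 2-fold lower then went from 1 to 0.

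S100A8 and S100A9 form calprotectin, a heterodimer of neutrophils, monocytes and inflamed epithelia that binds zinc and manganese and acts on TLR4 and RAGE. S100A8 went from 5.25 in EBC1 to 5.98 in EBC1-R, a difference of 0.73 and the largest upward difference of the members. Of the 3465 other genes within 0.5 log2 units of its mean level, 0.779% were higher by at least as much. S100A9 read 6.81 in EBC1 against 7.05 in EBC1-R, which is a difference of 0.24, and 18.8% of the 3278 genes at a similar level were higher by at least as much. Both subunits were thus higher in EBC1-R, and the difference of S100A9 lay well within the spread of genes of its brightness. Both were under the level filter of 7.41, the median of the genes' higher values, and no detection calls were used, so whether either stood above background is not known. Adding a pseudocount of 16 on the linear scale lowered the difference of S100A8 to 0.55. At a 1.5-fold threshold S100A8 was the 1 member counted as higher, where 4.41% of all genes were, and S100A16 the 1 counted as lower, where 3.16% were. S100A12, which lies between them on the chromosome and is also a myeloid protein, was at 5.35 and 5.08, a difference of -0.27.

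Because S100A8 and S100A9 are abundant in neutrophils and monocytes, markers of those cells were read on the same arrays. Of 14 measured myeloid markers FCER1G was identical on both arrays. The 14 markers were lower in 9 cases (64.3%, against 55.5% of all genes) and higher in 4, none of them 2-fold. Their levels lay between 4.56 and 11.45, with medians of 5.87 in EBC1 and 5.78 in EBC1-R. The pan-leukocyte gene PTPRC was at 4.56 and 4.65 and the myeloid enzyme gene LYZ at 4.73 and 4.77, both near the lowest values of the arrays. CD68, a lysosomal protein that many cell types express, was at 11.04 and 11.45, and ELANE, a neutrophil protease gene at 7.49 and 7.43, was the only other one above the level filter. Among the others the largest differences were -0.22 for MPO, -0.20 for CSF1R and 0.17 for TYROBP. The median difference was -0.09 over 9 other leukocyte, 0.00 over 11 fibroblast and -0.02 over 8 endothelial markers, with the largest differences at NKG7 (-0.34), FAP (0.15) and CLDN5 (-0.25).

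The labelled cell type was read on epithelial and squamous markers. All 9 epithelial markers passed the level filter, 4 of them higher and 5 lower in EBC1-R (55.6%, against 55.5% of all genes). Their median difference was -0.08. ELF3, an epithelial transcription factor, was 4.62-fold higher, at 7.86 and 10.06. The keratins of simple epithelia were bright. Differences were -0.89 for KRT19 (12.77 in EBC1), -0.83 for KRT8 (12.83) and -0.78 for KRT18 (12.26), but only -0.16 for KRT7 (12.17). CDH3 was higher in EBC1-R, at 10.73 and 11.40, a difference of 0.67, and CLDN4 was at 9.09 and 9.18. EPCAM read 11.33 and 11.25, and CDH1, the gene of E-cadherin, 11.96 and 12.06. Of the 9 listed squamous markers 6 were measured, and TP63, KRT6A and KRT17 were not analysed here. All 6 stayed under the level filter, with KRT15 at 6.87 and 6.39, KRT14 at 7.26 and 6.97, KRT5 at 6.17 and 6.11, SOX2 at 6.53 and 6.39, PKP1 at 5.99 and 6.11 and DSG3 at 5.19 and 5.13.

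**Figure D2:**
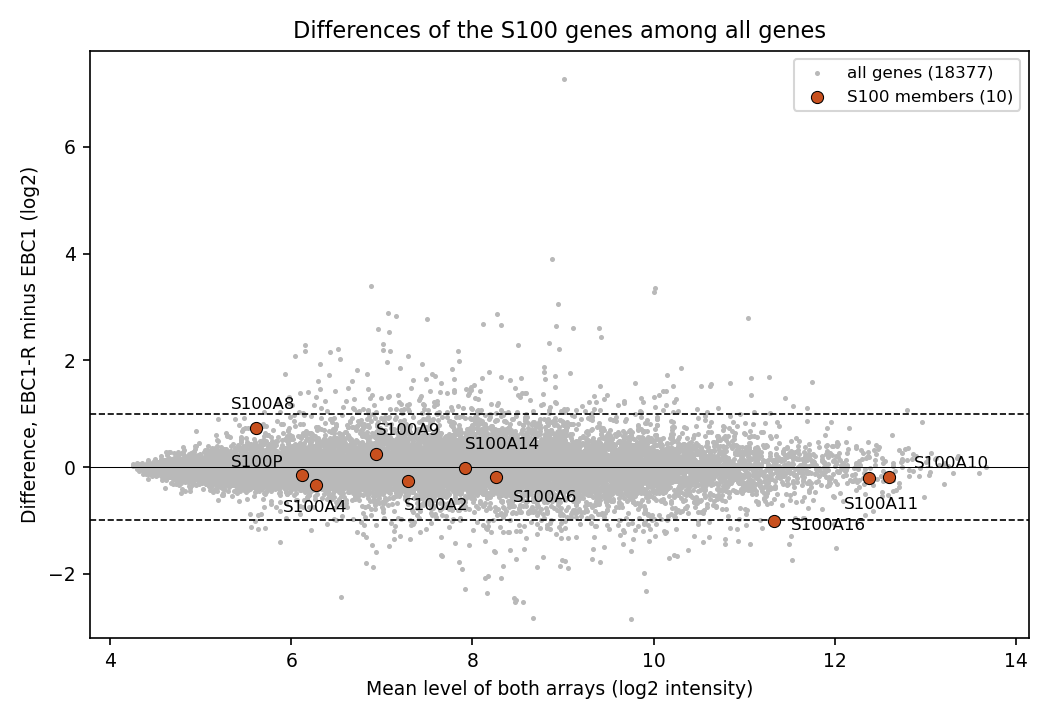
Difference between EBC1-R and EBC1 (log2) against the mean level of both arrays (log2 intensity) for all 18377 genes (grey) and the 10 S100 genes (orange), with dashed lines at 2-fold. S100A16 sits on the lower line at -1.02, S100A8 at 0.73 stands above most genes of its brightness, and the rest lie within the main cloud.

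S100A10 and S100A11 had the brightest probe sets of the members and differed little. S100A10, also called p11, pairs with annexin A2 and brings it and plasminogen to the cell surface. It read 12.69 in EBC1 against 12.51 in EBC1-R, a difference of -0.18, and 29.4% of the 109 genes of similar brightness were lower by at least as much. S100A11, which binds annexin A1 and has roles in membrane repair and growth control of keratinocytes, was at 12.48 and 12.28, a difference of -0.20. RefSeq lists 10 pseudogenes of S100A11, and whether their transcripts reach its probes was not checked. Both genes lay above the 99th percentile of gene levels on both arrays.

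The other 5 members were S100A2, S100A4, S100A6, S100A14 and S100P. S100A4, known as metastasin, binds non-muscle myosin and is often studied in invasion. It read 6.44 in EBC1 against 6.10 in EBC1-R, a difference of -0.34, with 6.01% of the 3660 genes at its brightness lower by at least as much. S100A2, a squamous epithelial member that can bind p53, was at 7.42 and 7.15, a difference of -0.26. It cleared the level filter through EBC1 alone. S100A6, or calcyclin, which binds annexin A11 and the protein CACYBP, was at 8.36 and 8.16, a difference of -0.19. S100P, a member of the family often raised in adenocarcinomas, was at 6.19 and 6.04, a difference of -0.15. S100A14, an epithelial member encoded next to S100A16, was at 7.93 and 7.91, a difference of -0.02, and 47.1% of genes of similar brightness were lower by at least as much. For S100A2, S100A6 and S100P that share was 15.4%, 24.5% and 28.5%. In all, 6 of the 10 members passed the level filter, namely S100A2, S100A6, S100A10, S100A11, S100A14 and S100A16.

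The start regions of the genes were read from RefSeq (GRCh38.p14), which holds 14 windows of 300 bases for the 10 members, 250 before and 50 from the start site on. The letters TATAAA, the core of a TATA box, were found on either strand in 5 of the 14 windows and in 11.5% of all 35116 windows. In S100A4, S100A8, S100A9 and S100P a match lies just before the start. The share of all windows with a match that near the start was not counted. The stretches of these genes run from position -50 to 10, where the first transcribed base is 1, with TATAAA in capitals. They are shown because they include the pair that was higher in EBC1-R beside a pair that was lower.
S100A8: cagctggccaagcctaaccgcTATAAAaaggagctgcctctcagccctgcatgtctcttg
S100A9: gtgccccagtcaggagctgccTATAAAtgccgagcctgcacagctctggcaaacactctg
S100A4: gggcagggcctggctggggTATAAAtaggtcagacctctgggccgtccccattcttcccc
S100P: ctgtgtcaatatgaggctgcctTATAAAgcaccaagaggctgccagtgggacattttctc
The stretches lie at chr1:153391064-153391123 on the minus strand for S100A8, chr1:153357804-153357863 on the plus strand for S100A9, chr1:153545797-153545856 on the minus strand for S100A4 and chr4:6693828-6693887 on the plus strand for S100P. The match starts at position -29 in both S100A8 and S100A9, at -31 in S100A4 and at -28 in S100P. The stretches were chosen for a match near the start, so its presence there is no finding about these genes. Letters that differ by 1 base, such as TATAAG in the S100A6 and S100A14 windows, were not counted. Whether the letters bear on the levels was not tested. S100A8 has 3 windows with different starts, and the stretch shown comes from the second of them as listed. The third overlaps it and holds the same site farther from its own start, which makes up the 5 windows.

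S100A16 and S100A14 are neighbours on the minus strand that differed by -1.02 and -0.02, and their windows are shown for that contrast. Capitals mark matches to the letters of 6 further motifs, searched on both strands: TGANTCA for AP-1, TTNNGNAAT for C/EBP, TTCNNNGAA for STAT, TGACNNNGC for the antioxidant response element, NACGTG for the hypoxia response element and GGGNNTTCC for an NF-kB-like site. AP-1 and antioxidant letters can overlap each other.
S100A16, upstream start: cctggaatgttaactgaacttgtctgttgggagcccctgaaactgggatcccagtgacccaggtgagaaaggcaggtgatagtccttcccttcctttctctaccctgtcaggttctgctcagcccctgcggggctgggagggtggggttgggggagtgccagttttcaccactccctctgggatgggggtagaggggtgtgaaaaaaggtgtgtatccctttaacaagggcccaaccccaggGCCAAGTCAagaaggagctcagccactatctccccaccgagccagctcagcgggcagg
S100A16, downstream start: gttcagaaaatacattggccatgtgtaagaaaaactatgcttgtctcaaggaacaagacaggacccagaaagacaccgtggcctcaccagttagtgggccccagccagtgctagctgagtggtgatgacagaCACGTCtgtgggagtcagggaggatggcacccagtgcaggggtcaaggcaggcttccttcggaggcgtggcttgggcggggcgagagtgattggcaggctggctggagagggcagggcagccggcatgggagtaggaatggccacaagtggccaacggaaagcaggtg
S100A14: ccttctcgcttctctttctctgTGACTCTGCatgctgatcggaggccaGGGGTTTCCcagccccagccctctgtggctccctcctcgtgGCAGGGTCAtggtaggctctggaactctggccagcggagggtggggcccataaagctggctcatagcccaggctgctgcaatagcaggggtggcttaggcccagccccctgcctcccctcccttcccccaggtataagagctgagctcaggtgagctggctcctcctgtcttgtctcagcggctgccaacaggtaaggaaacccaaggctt
They lie at chr1:153613088-153613387 and chr1:153609306-153609605 for S100A16 and at chr1:153616276-153616575 for S100A14 (RefSeq, GRCh38.p14). The upstream S100A16 window holds 1 antioxidant match, on the opposite strand across the start, and the downstream window 1 hypoxia match. S100A14 holds 2 antioxidant matches and 1 NF-kB-like match. Among all windows 13.3% hold the antioxidant letters, 21.4% the hypoxia letters and 6.58% the NF-kB-like letters, so such matches are common. Of the other members, S100A2 has an AP-1 match (7.71% of all windows), S100A9 and S100A11 a C/EBP match (11%) and S100A10 a hypoxia match. No member window holds the STAT letters, which 7.66% of all windows do. A match to letters is a description of sequence and no measurement of binding.

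Of the 10 members, 9 lie on 1q21 and S100P lies apart on 4p16. Between S100A10 and S100A1 the table holds 59 genes, 17 of them S100 genes. Of these 17, 13 were lower and 4 higher, with a median of -0.18. The 42 other genes had a median of -0.09, with 1 at least 2-fold lower and 0 higher. Of all genes, 55.5% were lower, 0.887% at least 2-fold lower and 1.26% at least 2-fold higher. The 1 gene of the 42 was SPRR1B, a cornified envelope precursor, 2.13-fold lower at 9.36 and 8.27. The nearby SPRR1A was at 8.87 and 8.01, a difference of -0.86. SPRR3, which lies between them, differed by -0.28, and SPRR2D on the other side of SPRR1B by 0.31. The 15 consecutive S100 genes from S100A9 to S100A1 had a median of -0.11. S100A16 stood between S100A2 (-0.26) and S100A14 (-0.02), so the genes on either side did not share its difference. Beyond the cluster on the S100A1 side, CHTOP differed by -0.01, SNAPIN by -0.16 and ILF2 by -0.12, NPR1 by 0.07 and INTS3 by 0.20. On the S100A10 side THEM4 differed by 0.15, THEM5 by 0.06, LINGO4 by -0.17, TDRKH by 0.31 and OAZ3 by -0.20. Next to S100P (-0.15), MRFAP1L2 differed by -0.30 and MRFAP1L1 by -0.16, MRFAP1 by -0.17, MAN2B2 by -0.01 and BLOC1S4 by -0.24. Farther out there, KIAA0232 differed by -0.20, TBC1D14 by 0.08, CFAP184 by -0.06, PPP2R2C by 0.44 and WFS1 by 0.58. The epidermal differentiation complex genes other than S100 were mostly dim, with 7 of 33 above the level filter. Of the 33, 24 were lower (72.7%, against 55.5% of all genes), with a median of -0.14. After SPRR1B and SPRR1A the largest differences among them were -0.39 for SPRR2G and -0.32 for LCE3B. The 6 measured fused S100-type genes, which join an S100 domain to long repeats, differed by -0.09 (TCHH and CRNN) to 0.11 (FLG, the gene of filaggrin), with RPTN at 0.09.

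**Figure D3:**
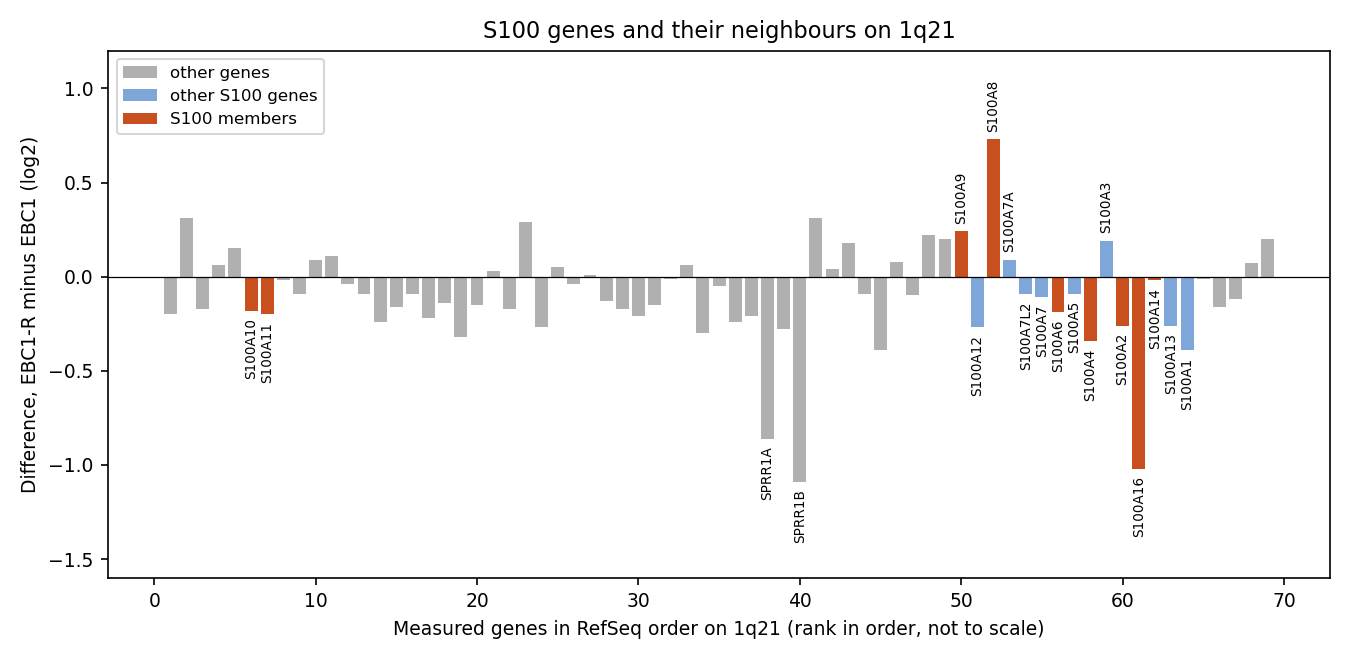
Difference between EBC1-R and EBC1 (log2) for measured genes in RefSeq order on 1q21, from the 5 genes before S100A10 to the 5 after S100A1, each bar 1 gene. S100 members are orange and other S100 genes blue; S100A16 at -1.02 stands between S100A2 (-0.26) and S100A14 (-0.02), and the only other bar past -1 is SPRR1B.

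The rest of the S100 family was dim and differed little. Of 12 other S100 and S100-related genes, 8 were lower (66.7%, against 55.5% of all genes) and 4 higher. None was 2-fold different, and the median was -0.08. S100A1, a muscle and heart member, was at 5.63 and 5.24, a difference of -0.39 and the largest of this list. S100A13, which takes part in the release of FGF1, was at 6.92 and 6.66, and S100A3, a hair cuticle protein, at 6.19 and 6.38. Of these 12 only S100PBP, which encodes a binding protein of S100P and is no S100 gene itself, passed the level filter, at 8.55 and 8.48. S100A7, or psoriasin, was at 5.78 and 5.67, and it has near-identical copies whose probes may share signal. Over all 22 genes the median difference was -0.10, and S100A16 remained the 1 gene at least 2-fold different.

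The annexins, calcium-dependent membrane-binding proteins that S100 dimers join into complexes, held members on both sides. Of 11 measured, 7 were lower (63.6%, against 55.5% of all genes) and 4 higher, with a median of -0.02. At 2-fold, 1 was lower and 1 higher, where 0.887% and 1.26% of all genes were. ANXA2, the partner of S100A10, read 12.89 in EBC1 against 12.46 in EBC1-R, a difference of -0.43 beside -0.18 for S100A10. ANXA1, a partner of S100A11, was at 13.03 and 13.20, a difference of 0.17 beside -0.20. ANXA11, a partner of S100A6, was at 11.06 and 10.60, a difference of -0.46 beside -0.19. The S100A10 and S100A6 pairs were thus both lower in EBC1-R and the S100A11 pair was split, each by less than 1.5-fold. ANXA6 was 2.13-fold higher, from 8.46 to 9.55. ANXA10 was 2.25-fold lower, at 6.21 and 5.05, with neither value reaching the level filter. ANXA5 was at 12.41 and 11.77, and ANXA4 at 9.06 and 9.60.

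Receptors and cofactors of extracellular S100 proteins also went both ways, 6 of 12 higher and 6 lower (50%, against 55.5% of all genes). Their median was 0.04. At 2-fold, 1 was lower and 1 higher, where 0.887% and 1.26% of all genes were. TLR4, the receptor through which S100A8 and S100A9 signal, was 1.72-fold lower in EBC1-R, at 8.31 and 7.52. LY96, which encodes the TLR4 co-receptor MD-2, was 2.06-fold higher, at 5.87 and 6.92, with neither value reaching the level filter. CD36, a fatty acid receptor, was at 4.62 and 5.29. AGER, which encodes RAGE, was at 6.98 and 6.67, under the level filter. BSG (basigin), which binds S100A9, was at 12.15 and 12.10, and NPTN (neuroplastin), which binds S100A8, at 9.89 and 10.02. EMP1, an epithelial membrane protein whose link to S100 proteins is less certain, had the largest difference of the list. It was 3.34-fold lower, from 12.39 to 10.65. EMB and MCAM, also read on the arrays, were at 8.83 and 8.99 and at 9.22 and 8.98. ALCAM, an adhesion molecule, was at 9.93 and 10.48, a difference of 0.55. TLR4 and its co-receptor gene thus differed in opposite directions, and the receptors as a group had no common direction.

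Another 19 genes were listed as partners of S100 proteins or as linked to them. Of these, 11 were lower (57.9%, against 55.5% of all genes) and 8 higher, with a median of -0.06. PLAU, the urokinase that activates plasminogen, was the 1 gene at least 2-fold lower, where 0.887% of all genes were. It read 12.16 in EBC1 against 10.87 in EBC1-R, or 2.45-fold lower. Its receptor gene PLAUR was at 11.11 and 10.85. Neither PLAU nor PLAUR is given here as a protein that binds an S100 protein. MYH9, a heavy chain of the non-muscle myosin that S100A4 binds, was at 10.81 and 10.31. AHNAK, a scaffold joined by S100A10 and annexin A2, was at 11.73 and 11.44. The co-chaperones FKBP4 and SUGT1 were at 9.67 and 10.10 and at 7.59 and 7.97. CACYBP, the calcyclin-binding protein, was at 8.27 and 8.15.

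**Figure D4:**
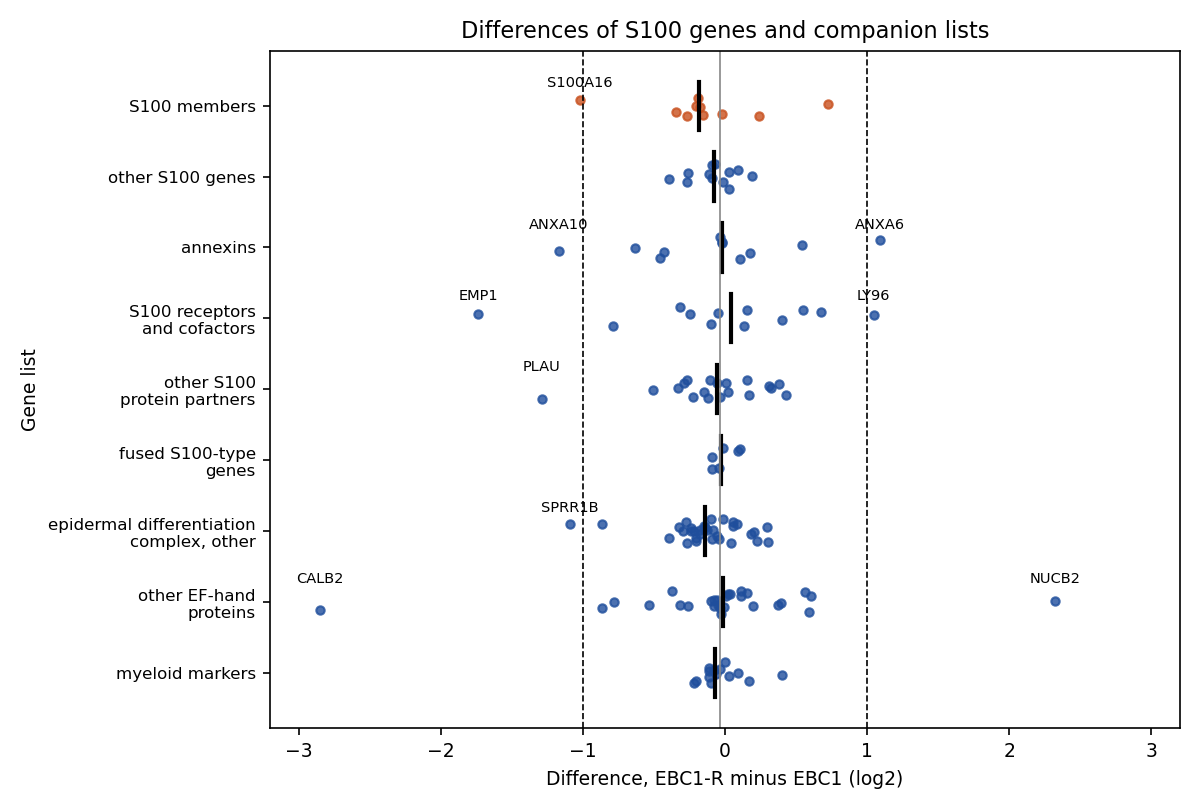
Differences between EBC1-R and EBC1 (log2), each point 1 gene, for the S100 members (orange) and the companion lists (blue), with the list median as a black bar, dashed lines at 2-fold and the median of all genes as a grey line. List medians lie between -0.18 and 0.04, and the named points are genes at least 2-fold different.

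Genes of known interest in these cells were read beside the labels of the arrays. ABCB1, the efflux pump named in the title of the study, read 5.37 in EBC1 against 12.65 in EBC1-R, and MET read 13.17 and 13.21. ABCB1 was chosen with the study's result known and MET was alike on both arrays. Neither gene is therefore an independent check of the labels. The number of arrays limits the precision of every value above.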

How the data were processed

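RNA of 1 EBC1 and 1 EBC1-R sample was hybridised to 1 array each. Per the labels' protocols, Trizol-extracted total RNA was labelled as biotinylated cDNA by an Affymetrix whole-transcript method. The labels' extraction text names an older array type, but the probe sets match the annotation of a whole-transcript gene array. The authors deposited 28869 values per array, taken here as log2 intensities from their range (4.21 to 14.1 and 4.22 to 14.2). How these values were normalized and summarized, and with which log base, was not given in the sources used here. Column medians were 6.73 and 6.71. If the arrays had been scaled alike, any shift shared by most genes would have been removed.

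Probe sets with 1 gene symbol (19310) were averaged per gene, giving 18377 genes. Another 1752 probe sets named several genes, none of them an S100 member, and 7807 named none. RefSeq (GRCh38.p14) held the gene identifiers of 19279 and changed no symbol. Differences were taken as EBC1-R minus EBC1. Counts used 2-fold, and the level filter of 7.41 kept 9189 genes. The pooled SD between probe sets of the same gene (374 genes) was 0.16, which describes probe agreement and not cultures. With 1 array per group there was no test. Named genes were all members, up to 4 of the largest differences of each companion list, set partners and receptors, and 5 neighbours on each side of the clusters. Some further listed genes were named beside them. The members and lists were chosen with earlier results of these data known. Protein sequences were not used here. Counting was tested on simulated data. Python 3.11.15, pandas 2.3.3, statsmodels 0.14.6.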

Additional observations from a re-analysis of the deposited data

How the results depend on the processing

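The settings tried were quantile normalization, a lowess trend taken out, arrays centred on their medians, a pseudocount of 16 and the brightest probe set of each gene. Under these 5 settings all 10 members kept the direction of their difference, S100A14 by a margin that rounded to 0.00 when centred. The brightest probe set could not change any member, because each has 1 probe set. A pseudocount cannot change a direction either, and centring moved all genes by the same small amount. The kept directions are therefore only a weak check. S100A16 ranged from -1.019 to -0.999 (centred) and S100A8 from 0.55 (pseudocount) to 0.78. The median of the members ranged from -0.18 to -0.16 under them. It was -0.20 when only the 6 members that passed the level filter were kept. That filter takes the higher value of each gene, and S100A2 passed it through EBC1 alone. A filter on the mean level of both arrays also kept 6 members and gave -0.20, so it was no separate check. The median was -0.10 over 22 genes, the members with the other S100 and S100-related genes, S100PBP included. The count of members at least 2-fold lower, 1, became 0 when the arrays were centred and at a 3-fold threshold. The count higher, 0, became 1 at a 1.5-fold threshold. Of 48 companion list medians under other settings, 1 moved by more than 0.16, that of the myeloid markers, to 0.17 over the 2 above the level filter. No probe set names a member together with other genes, so that alternative gave no value. No paired analysis was possible because each group has 1 array. Signals near the dim end, such as S100A8, S100A4 and S100P, limit what the arrays resolve.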

Other observations

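Outside the S100 family, the EF-hand genes CALB2 and NUCB2 differed by more than any S100 gene. Of 28 measured, 15 were lower (53.6%, against 55.5% of all genes) and 13 higher, with a median of -0.02. At 2-fold, 1 was lower and 1 higher, where 0.887% and 1.26% of all genes were. CALB2 (calretinin), a cytosolic calcium buffer, read 11.17 in EBC1 against 8.32 in EBC1-R, or 7.21-fold lower. NUCB2, a calcium-binding protein of the secretory pathway and the precursor of nesfatin, was at 7.69 and 10.01, higher by 2.32 on the log2 scale. Its paralog NUCB1 was at 9.90 and 10.49. VSNL1 and HPCAL1, members of the neuronal calcium sensor family, were lower. HPCAL1 was at 11.15 and 10.36, and VSNL1 at 7.23 and 6.36, with neither VSNL1 value reaching the level filter.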
